A study of Mus musculus with 2 samples.

Results

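The genes described are 5 B lymphocyte genes of the mouse heart: Ighm, Igkc, Cd79a, Cd79b and Ms4a1. They were taken by symbol from the deposited feature table, which lists each symbol in 1 row, so the set has 5 of the 32285 genes measured. Each was followed in spatial gene expression libraries (Visium), in which barcoded spots on a slide capture the polyadenylated RNA of the tissue above them and unique molecular identifiers (UMIs) count the captured molecules. A spot can hold several cells of different types.

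Of the sections, 1 came from a PD1 KO mouse, homozygous for loss of PD1 (gene Pdcd1, an inhibitory receptor of activated lymphocytes), and 1 from a PD1 Het mouse, heterozygous for it. Both animals had the C57BL/6 background and a myocardial infarction made by ligating the left anterior descending coronary artery on postnatal day 2, and both hearts were taken 7 days later. The hearts were frozen in embedding medium, and transverse sections of 10 µm were cut 200 µm below the suture and permeabilized for 18 min. Neither an uninjured heart nor a wild-type heart was analysed here, and the animal that serves as control is itself heterozygous. With 1 section per genotype there is no replicate and no test: the intervals below are 95% exact intervals that cover counting error only, and spots of a section are not replicates.

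B cells carry the B cell receptor, a membrane immunoglobulin built from heavy and light chains. Antigen is bound by the chains, and the signal is passed into the cell by the paired proteins CD79A and CD79B. In the mouse heart B cells are known as a resident leukocyte population, many of them held in the blood vessels, and after infarction in adult mice they are known to accumulate in the injured myocardium. Ighm encodes the constant region of the µ heavy chain, the isotype of naive B cells and of secreted IgM. Igkc encodes the constant region of the kappa light chain, which most mouse B cells use. Ms4a1 encodes CD20, a surface protein of mature B cells that is lost in plasma cells.

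A promoter of the set is shown for Cd79a, a B lineage gene in which binding of E2A, EBF, ETS and Pax5 proteins is well studied in the mouse. It was the only one of the 5 in the RefSeq promoter table, and it spans 250 bases before to 50 bases after the RefSeq start, on the plus strand of chr7:24897247-24897546 (GRCm38.p6). The GENCODE annotation starts Cd79a at 24897381, within this window and upstream of the RefSeq start.
Cd79a promoter: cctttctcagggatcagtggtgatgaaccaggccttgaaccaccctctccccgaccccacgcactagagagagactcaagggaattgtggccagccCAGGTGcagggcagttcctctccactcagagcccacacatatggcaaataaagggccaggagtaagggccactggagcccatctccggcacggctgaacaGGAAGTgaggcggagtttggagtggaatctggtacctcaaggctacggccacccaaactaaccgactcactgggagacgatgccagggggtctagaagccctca
Capitals mark a match to the E-box letters CAGGTG at position 97 and a match to the ETS letters GGAAGT at position 197, counted from the first base shown, with both strands searched. By the GENCODE start the E-box match lies before the gene and the ETS match inside it. The same letters stand in 20.2% and 23.8% of 32851 promoters of that length. The octamer ATGCAAAT, found in immunoglobulin promoters, and the letters CCCNNGGG, a form of the EBF site, had 0 matches in this window and occur in 1.74% and 13.7% of the promoters. A match of letters is a description of the sequence and not evidence of a bound site. Only these exact letters were searched, so 0 matches do not show that the window lacks an EBF or octamer site of other letters.

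The PD1 KO section kept 851 spots with 23520499 UMIs, at a median of 27134 UMIs per spot, and the PD1 Het section kept 811 spots with 12814494 UMIs, at a median of 15475. Mitochondrial genes took 15.9% of the UMIs of the PD1 KO section and 25.6% of those of the PD1 Het section. Pdcd1 had 0 UMIs in both sections and so gives no check of the genotype labels. Xist had 1 UMI in the PD1 KO section and 541 in the PD1 Het section, and 4 Y-linked genes together had 2900 and 1 UMIs, so the sections differ in sex as well as in genotype and effects of the 2 cannot be told apart. The sections shared 225 spot barcodes, which the slides draw from a common set. The gene in the middle of all genes with at least 100 UMIs was 1.26-fold higher in CPM (a gene's UMIs divided by all UMIs of the section, times 1000000) in the PD1 KO section, a log2 difference of 0.33. Ratios called relative have this shift taken out.

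The 5 genes were rare transcripts in both hearts. Together they had 429 UMIs in the PD1 KO section and 316 in the PD1 Het section, which is 18.2 CPM (16.6 to 20.0) and 24.7 CPM (22.0 to 27.5). The summed ratio of PD1 KO over PD1 Het was 0.740-fold, or -0.44 on the log2 scale (-0.65 to -0.22), and -0.77 (-0.98 to -0.55) relative to the median gene. The interval lies below 0 on both scales, but nothing measured here tells how far sections of 1 genotype differ from each other. In a spot of mixed tissue, fewer B cells and less RNA per B cell cannot be told apart.

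Ighm (ENSMUSG00000076617; GRCm38 chr12:113418558-113422730, minus strand), the heavy chain gene, was the most captured of the 5. It had 232 UMIs in 174 PD1 KO spots and 144 UMIs in 120 PD1 Het spots, or 9.86 CPM (8.64 to 11.2) and 11.2 CPM (9.48 to 13.2). No spot of either section held more than 6 Ighm UMIs. The log2 ratio was -0.19 in CPM (-0.49 to 0.12) and -0.52 relative to the median gene (-0.83 to -0.21), so whether the CPM level was lower in the PD1 KO section is within counting error.

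Igkc (ENSMUSG00000076609; GRCm38 chr6:70726435-70726966, plus strand), the light chain gene, was lower in the PD1 KO section on both scales. It had 74 UMIs in 59 PD1 KO spots and 77 UMIs in 66 PD1 Het spots, although the PD1 KO section was the deeper one. These are 3.15 CPM (2.47 to 3.95) and 6.01 CPM (4.74 to 7.51), a log2 ratio of -0.93 in CPM (-1.41 to -0.45) and of -1.26 relative to the median gene (-1.75 to -0.79). Igkc supplied 17.2% (13.8 to 21.2) of the UMIs of the 5 genes in the PD1 KO section and 24.4% (19.7 to 29.5) in the PD1 Het section, while Ighm supplied 54.1% (49.2 to 58.9) and 45.6% (40.0 to 51.2). The heavy and light chain transcripts therefore differed between the sections in unequal measure, with intervals of the shares that overlap. The annotated span of Igkc holds 1 other gene on the same strand, Gm30211, which had 0 UMIs in both sections.

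The paired signalling subunits were captured at unequal counts. Cd79b (ENSMUSG00000040592; GRCm38 chr11:106311341-106314762, minus strand) had 74 UMIs in 65 PD1 KO spots and 58 UMIs in 52 PD1 Het spots, or 3.15 CPM (2.47 to 3.95) and 4.53 CPM (3.44 to 5.85). Its log2 ratio was -0.52 in CPM (-1.04 to -0.003) and -0.86 relative to the median gene (-1.37 to -0.33). Cd79a (ENSMUSG00000003379; GRCm38 chr7:24897381-24902197, plus strand) had 35 UMIs in 33 PD1 KO spots and 18 UMIs in 17 PD1 Het spots, or 1.49 CPM (1.04 to 2.07) and 1.40 CPM (0.832 to 2.22). Of the 5 genes Cd79a alone had a CPM ratio above 0 on the log2 scale, 0.08 (-0.78 to 0.99), and its relative ratio was -0.25 (-1.11 to 0.66). A difference between the sections in Cd79a was not detectable at this depth.

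Ms4a1 (ENSMUSG00000024673; GRCm38 chr19:11249675-11266241, minus strand), the CD20 gene, was the least captured. It had 14 UMIs in 14 PD1 KO spots and 19 UMIs in 17 PD1 Het spots, or 0.595 CPM (0.325 to 0.999) and 1.48 CPM (0.893 to 2.32). Its relative log2 ratio was -1.65 (-2.76 to -0.58), the lowest of the 5, with an interval that overlaps those of the other 4. Its span overlaps 4930526L06Rik on the opposite strand, which had 2 UMIs in the PD1 KO section and 0 in the PD1 Het section.

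Relative to the median gene, 3 of the 5 genes (Igkc, Ms4a1 and Cd79b) were at least 1.5-fold lower in the PD1 KO section and 0 were at least 1.5-fold higher. Over all 14714 genes with at least 10 UMIs, 7.12% were that much lower and 9.2% that much higher. In CPM, 2 of the 5 were at least 1.5-fold lower and 0 higher, against 2.95% and 25.3% of all genes. The median relative log2 ratio of the 5 was -0.86. These are counts of 5 genes chosen with earlier results of these data known, and they carry no test.

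In order of UMIs captured, the PD1 KO section had Ighm, then Igkc and Cd79b at the same count, then Cd79a and Ms4a1. The PD1 Het section had Ighm, Igkc, Cd79b, Ms4a1 and Cd79a, and there the intervals of Igkc and Cd79b overlap, as do those of Ms4a1 and Cd79a. The assay counts molecules captured by their poly(A) tails, so these counts were not divided by gene length and capture may differ between genes. None of the last 400 bases of any of the 5 genes' transcripts shared a 31-base word with another gene. The plot of CPM by gene shows these levels: the intervals of the sections are apart for Igkc, overlap for Ighm and Cd79b, and nearly coincide for Cd79a.

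**Figure D1:**
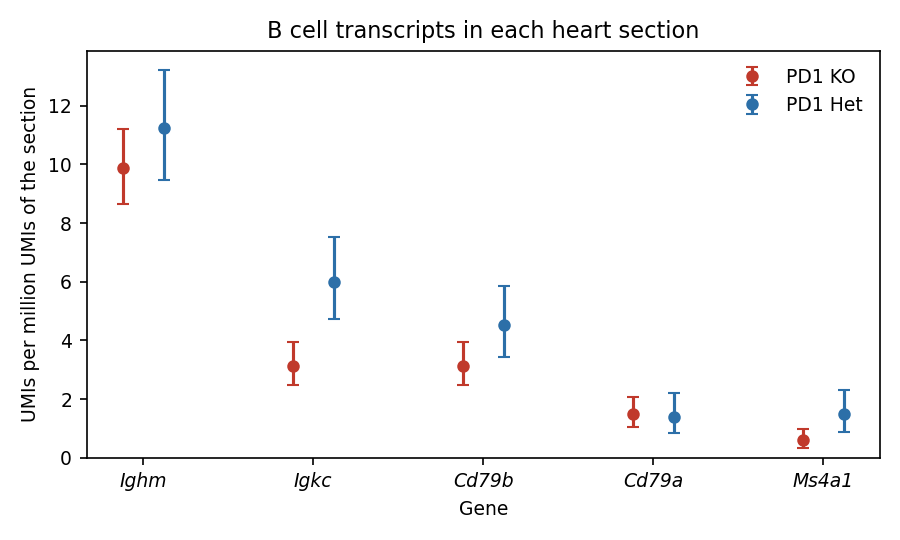
Level of each gene in CPM (y axis) for the 5 genes (x axis), with 1 point for the PD1 KO section and 1 for the PD1 Het section. Bars are 95% exact Poisson intervals and cover counting error only; Ighm is at 9.86 and 11.2 CPM and Igkc at 3.15 and 6.01 CPM.

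How many spots held a B cell transcript depended on depth. Of all kept spots, 268 of 851 in the PD1 KO section (31.5%, 28.4 to 34.7) and 206 of 811 in the PD1 Het section (25.4%, 22.4 to 28.5) had at least 1 UMI of the 5 genes, a difference of 6.09 percentage points (1.67 to 10.5). When each spot was thinned to 10000 UMIs, leaving out 12 PD1 KO spots and 52 PD1 Het spots that were shallower, the order turned round. Then 130 of 839 PD1 KO spots (15.5%, 13.1 to 18.1) and 145 of 759 PD1 Het spots (19.1%, 16.4 to 22.1) had a UMI of the 5, a difference of -3.61 points (-7.43 to 0.186). That interval includes 0. When mitochondrial UMIs were set aside before thinning, 145 of 839 PD1 KO spots (17.3%, 14.8 to 20.0) and 137 of 602 PD1 Het spots (22.8%, 19.5 to 26.3) had a UMI of the 5. The difference was then -5.48 points (-9.83 to -1.20), which lies below 0, so whether the share was lower in the PD1 KO section beyond counting error depended on this choice. The choice also changed the spots compared, as 602 of 811 PD1 Het spots reached the depth, against 839 of 851 in the PD1 KO section. Effects of the UMIs set aside and of the spots lost were not separated.

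By gene at equal depth, Ighm was in 8.94% of PD1 KO spots (7.10 to 11.1) and 9.75% of PD1 Het spots (7.73 to 12.1). Igkc was in 2.86% (1.84 to 4.23) and 4.74% (3.34 to 6.51), and Cd79b in 3.10% (2.03 to 4.51) and 5.01% (3.57 to 6.81). Cd79a was in 1.67% (0.915 to 2.78) and 1.71% (0.915 to 2.91), and Ms4a1 in 0.715% (0.263 to 1.55) and 1.84% (1.01 to 3.08). In this 1 random draw every one of the 5 shares was lower in the PD1 KO section, and for each the interval of the difference included 0. Averaged over all possible draws, the order of Cd79a turned round, at 1.47% of PD1 KO spots and 1.27% of PD1 Het spots. Igkc, Ighm, Cd79b and Ms4a1 stayed lower in the PD1 KO section. With mitochondrial UMIs set aside, also in 1 draw, all 5 were lower in the PD1 KO section. For Igkc, at 3.46% of PD1 KO spots (2.33 to 4.93) and 8.14% of PD1 Het spots (6.08 to 10.6), the interval of the difference, -7.41 to -2.15 points, lay below 0. T cell markers (10 genes such as Cd3e and Trac), measured in the same way, were in 5.60% of PD1 KO spots (4.14 to 7.38) and 4.74% of PD1 Het spots (3.34 to 6.51). The plot of shares of spots sets the thinned values beside the unthinned ones.

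**Figure D2:**
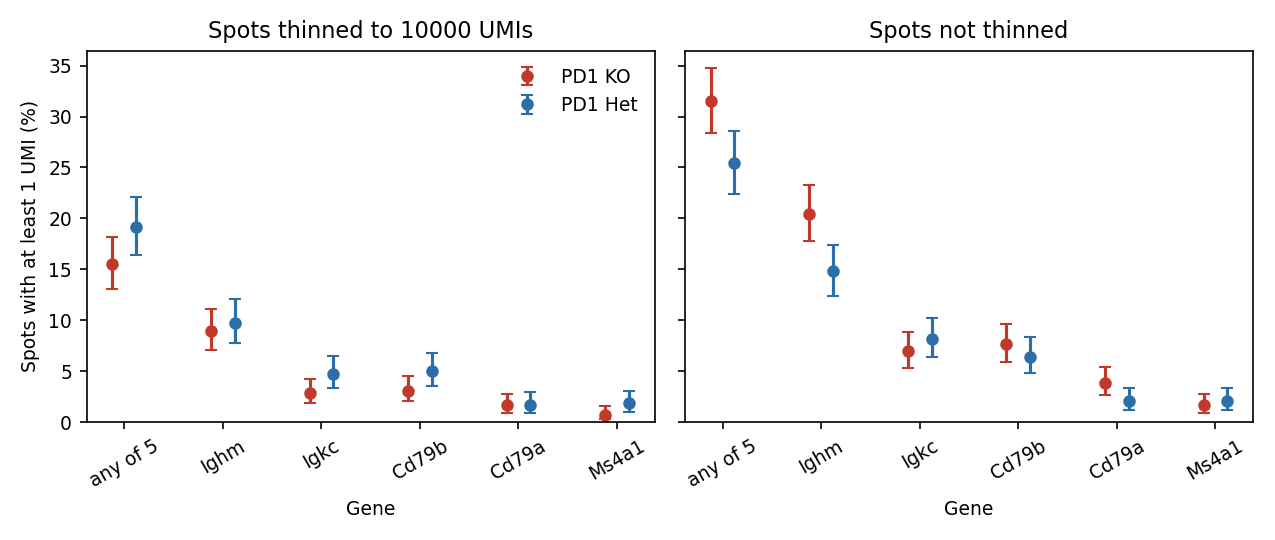
Percent of spots with at least 1 UMI (y axis) for any of the 5 genes and for each gene (x axis), thinned to 10000 UMIs per spot (left panel) and not thinned (right panel), in the PD1 KO and PD1 Het sections. Bars are 95% exact binomial intervals over spots; any of the 5 is at 15.5% and 19.1% when thinned and at 31.5% and 25.4% when not.

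Most spots with a B cell transcript held a single molecule. In the PD1 KO section 182 of the 268 spots had exactly 1 UMI of the 5 genes and 86 had 2 or more, and in the PD1 Het section 151 of the 206 spots had 1 and 55 had 2 or more. The 10% of spots with the most UMIs of the 5 (85 spots in the PD1 KO section and 81 in the PD1 Het section) held 57.1% and 60.4% of them. Without thinning, 58 PD1 KO spots (6.82%, 5.22 to 8.72) and 47 PD1 Het spots (5.80%, 4.29 to 7.63) held at least 2 different genes of the set. At equal depth these were 13 of 839 PD1 KO spots (1.55%, 0.828 to 2.64) and 24 of 759 PD1 Het spots (3.16%, 2.04 to 4.67).

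The genes of the receptor were found in the same spots more often than in other spots. In the PD1 KO section, 35 of the 59 Igkc spots (59.3%, 45.8 to 71.9) also held another of the 5, against 26.4% (23.4 to 29.6) of spots without Igkc. In the PD1 Het section this was 30 of 66 Igkc spots (45.5%, 33.1 to 58.2), against 18.8% (16.1 to 21.8). For Cd79a spots the share was 51.5% (33.5 to 69.2) in the PD1 KO section, against 28.7% (25.7 to 32.0) of spots without Cd79a, and 52.9% (27.8 to 77.0) in the PD1 Het section, against 23.8%.

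For Cd79b spots it was 47.7% (35.1 to 60.5) in the PD1 KO section and 36.5% (23.6 to 51.0) in the PD1 Het section, against 25.8% and 20.3% of spots without it. For Ms4a1 spots it was 7 of 14 spots (interval 23.0% to 77.0%) and 11 of 17 spots (64.7%, 38.3 to 85.8), against 30.3% and 23.8%. In each of these 10 comparisons, Ighm included, the share was higher in the spots with the gene, and the intervals did not overlap except for Ms4a1 in the PD1 KO section. At equal depth the share was again higher in all 10, while the intervals were apart only for Igkc, Ighm and Ms4a1 in the PD1 Het section. Depth differed too: spots with at least 2 of the 5 had a median of 28443.5 UMIs in the PD1 KO section and 17553 in the PD1 Het section, against 26536 and 15178 in spots with none. Not every gene rose with depth within a section. In the top 20% of PD1 KO spots by UMIs, 32.4% held any of the 5 and 18.2% held Ighm, against 31.3% and 21.0% of the other spots.

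**Figure D3:**
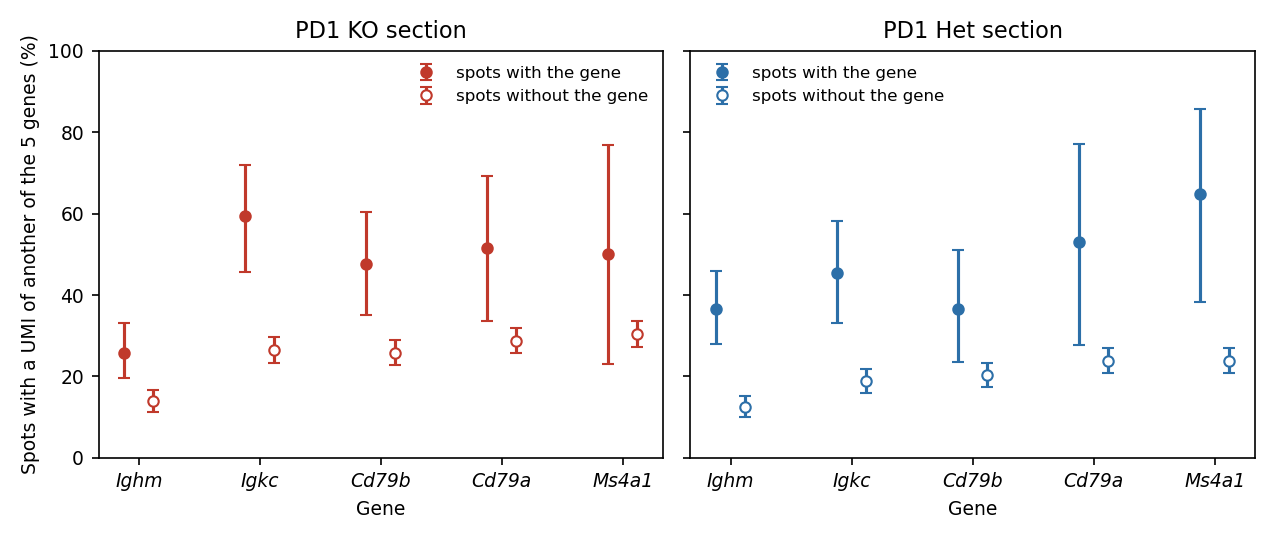
Percent of spots with a UMI of another of the 5 genes (y axis) among spots with the gene (filled points) and without it (open points), for each gene (x axis), in the PD1 KO section (left panel) and the PD1 Het section (right panel), without thinning. Bars are 95% exact binomial intervals over spots; for Igkc the shares are 59.3% and 26.4% in the PD1 KO section and 45.5% and 18.8% in the PD1 Het section.

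The plot of shared spots shows the filled points above the open ones for every gene in both sections. By number of spots the heavy and light chain transcripts met most often, and Ighm was also the most captured gene. Of Igkc spots, 25 of 59 in the PD1 KO section (42.4%) and 29 of 66 in the PD1 Het section (43.9%) also held Ighm, against 18.8% and 12.2% of spots without Igkc. The signalling partners Cd79a and Cd79b were together in 7 PD1 KO spots and 3 PD1 Het spots. That is 21.2% and 17.6% of Cd79a spots, against 7.09% and 6.17% of spots without Cd79a. Igkc and Ms4a1 were together in 5 PD1 KO spots and 9 PD1 Het spots, and Ighm and Ms4a1 in 5 and 10. Ms4a1 was in 8.47% and 13.6% of Igkc spots, against 1.14% and 1.07% of spots without Igkc. At equal depth some pairs went the other way. In the PD1 KO section these were Cd79b by Ighm (1.33% with, 3.27% without) and Cd79a by Igkc (0% and 1.72%). In the PD1 Het section it was Cd79b by Ms4a1 (0% and 5.10%).

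The richest spots hold few molecules. In the PD1 KO section the richest had 10 UMIs of the set among its 26005 UMIs: 4 of Igkc, 4 of Ighm and 1 each of Cd79a and Cd79b. The next had 9, of which 6 were Ighm, 2 Cd79b and 1 Igkc, and the third had 8, with 3 each of Igkc and Ighm and 1 each of Ms4a1 and Cd79b. A single PD1 KO spot, with 6 UMIs, held all 5 genes. Another held 5 UMIs of Ighm alone beside 5 UMIs of T cell markers. In the PD1 Het section the richest spots had 8 UMIs each: 5 Igkc, 1 Ighm and 2 Ms4a1 in one, and 6 Ighm, 1 Igkc and 1 Ms4a1 in the other. No PD1 Het spot held all 5 genes.

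Other immunoglobulin constant genes had few UMIs, most of them of the lambda light chains. Lambda constant genes (Iglc1, Iglc2 and Iglc3) had 39 UMIs in the PD1 KO section and 32 in the PD1 Het section, which is 34.5% (25.8 to 44.0) and 29.4% (21.0 to 38.8) of the light chain constant UMIs. Iglc2 and Iglc3 share 28.3% and 28.6% of the words of their ends with each other, so the split of UMIs between them is uncertain. Ighd, the δ heavy chain of mature naive B cells, had 7 and 8 UMIs. The 6 class-switched constant genes (Ighg1, Ighg2b, Ighg2c, Ighg3, Igha and Ighe) had 1 UMI in the PD1 KO section, of Ighg2c, and 0 in the PD1 Het section. Relative to the median gene, 3 of the 4 other constant genes with at least 10 UMIs were at least 1.5-fold lower in the PD1 KO section and 0 were higher, where 7.12% of all genes were that much lower. They were Iglc1 at -1.47 (-2.84 to -0.13), Ighd at -1.40 (-3.10 to 0.26) and Iglc2 at -1.21 (-2.55 to 0.14). Iglc3 was at -0.21 (-1.44 to 1.13). Only the interval of Iglc1 lies below 0. Most of all genes had more UMIs than these, so their share is no like background for genes this low. The separate values of Iglc2 and Iglc3 rest on that uncertain split. The list had a median log2 ratio of -1.30, and its sum of 47 UMIs in the PD1 KO section and 40 in the PD1 Het section gave -0.97 (-1.61 to -0.33). The 348 rows of variable segments had 0 UMIs in both sections. Molecules are captured here by their poly(A) tails, so this 0 does not tell whether variable segments were transcribed.

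Genes of antibody-secreting cells ran from few UMIs to many. Jchain, which joins IgM pentamers, had 4 UMIs in the PD1 KO section and 0 in the PD1 Het section, and Mzb1, a chaperone of immunoglobulin assembly, had 24 and 15. Xbp1, which many secretory and stressed cells express, had 1302 and 556. For Sdc1 the counts were 607 and 290, and for Prdm1 94 and 28. Of the plasma cell list, 5 of 8 genes had at least 10 UMIs, and 0 were at least 1.5-fold higher or lower relative to the median gene. Over all genes, 9.2% were that much higher and 7.12% lower. The 6 early B cell genes (Vpreb1, Vpreb2, Igll1, Rag1, Rag2 and Dntt) had 11 UMIs together in the PD1 KO section and 3 in the PD1 Het section, and none of them reached 10.

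Other B cell genes were called in both directions. Of 19 other B cell genes, 14 had at least 10 UMIs, and relative to the median gene 3 were at least 1.5-fold higher in the PD1 KO section and 3 at least 1.5-fold lower, with a median log2 ratio of -0.18 and a summed ratio of -0.16 (-0.36 to 0.05). Among the higher ones were Cd72 at 1.28 (0.42 to 2.26) and Vpreb3 at 0.64 (-0.84 to 2.43). The lower ones were Pou2af1, a coactivator of octamer factors, at -0.94 (-2.92 to 1.11), and the IgM Fc receptor gene Fcmr at -1.21 (-3.11 to 0.70). Ighd, at -1.40 (-3.10 to 0.26), was the other. All of these lower ones were within counting error of 0. Ighd was also counted among the other constant genes above. Over all genes with at least 10 UMIs, 9.2% were at least 1.5-fold higher relative to the median gene and 7.12% lower. The list had 612 UMIs in the PD1 KO section and 296 in the PD1 Het section, of which Ebf1, also expressed by stromal and perivascular cells, supplied 363 and 191. All 11 genes of receptor signalling (Syk, Lyn, Btk and others, several of them shared with myeloid cells) had at least 10 UMIs. Relative to the median gene 1 of them was at least 1.5-fold higher and 1 at least 1.5-fold lower, the exchange factor gene Vav1 at -0.64. Their median was 0.29 and their summed ratio 0.21 (0.09 to 0.34). In CPM 6 of the 11 were at least 1.5-fold higher and 0 lower, where 25.3% of all genes were that much higher and 2.95% lower.

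Among signals that guide and sustain B cells, 6 of 9 genes had at least 10 UMIs, and 2 of them were at least 1.5-fold lower relative to the median gene and 0 higher. Over all genes, 7.12% were that much lower and 9.2% higher. Ccl21a, a chemokine of lymphatic vessels and lymph nodes, had 39 UMIs in the PD1 KO section and 228 in the PD1 Het section, a relative log2 ratio of -3.76. Its counts are uncertain, since the mouse genome has near-identical copies of it. Ccl19 had 6 and 11 UMIs, at -2.08, and Cxcl13, the B cell follicle chemokine, 0 and 2. Cxcl12, a stromal chemokine that retains B cells and their precursors, had 1967 of the list's 2232 UMIs in the PD1 KO section and 801 of 1157 in the PD1 Het section, at 0.09. T cell markers had 149 UMIs in the PD1 KO section and 63 in the PD1 Het section. Of their 8 genes with at least 10 UMIs, 1 was higher and 1 lower by 1.5-fold, against the same 9.2% and 7.12% of all genes. Siglech, which marks plasmacytoid dendritic cells, had 0 UMIs in both sections.

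Spots with at least 2 UMIs of the 5 genes (86 in the PD1 KO section and 55 in the PD1 Het section) also held more of other B cell transcripts per UMI than the remaining spots. The list of other B cell genes was 1.61-fold higher in them in the PD1 KO section (1.28 to 2.00) and 1.89-fold in the PD1 Het section (1.32 to 2.66). Without Ebf1, a choice that was not planned, the list was 2.73-fold higher (2.01 to 3.67) and 3.70-fold higher (2.24 to 5.89). Ebf1 itself was at 0.956-fold and 1.06-fold. Cd72 was at 0.49-fold (0.13 to 1.31) in the PD1 KO section, and all its 13 PD1 Het UMIs lay in the other spots. Receptor signalling genes were at 1.24-fold (1.08 to 1.41) and 0.96-fold (0.71 to 1.27). Other immunoglobulin constant genes were 8.07-fold higher (4.35 to 14.9) and 4.16-fold higher (1.81 to 8.74). Mzb1 was 3.47-fold higher (1.22 to 8.80) and 4.54-fold higher (1.05 to 15.3), and Ly6d, a surface gene of early B lineage and dendritic cells, 6.74-fold (2.88 to 15.4) and 6.72-fold (2.27 to 18.1). Both were picked from lists that were level as a whole. The plasma cell list was at 0.98-fold (0.85 to 1.13) and 0.90-fold (0.68 to 1.16), with Xbp1 at 1.01-fold and 0.76-fold. Plasmacytoid dendritic cell markers, the list of Ly6d, were at 1.06-fold (0.87 to 1.29) and 1.17-fold (0.84 to 1.58), with Bst2 at 0.97-fold and 1.02-fold.

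Single genes behind the higher values can rest on few molecules. Fcrla, a B cell Fc receptor-like gene, had 8 UMIs in the 86 PD1 KO spots and 3 in the other spots. T cell markers were at 1.38-fold (0.83 to 2.20) in the PD1 KO section and 1.08-fold (0.34 to 2.66) in the PD1 Het section, and macrophage markers within 0.93-fold to 1.07-fold in the PD1 KO section and at 0.89-fold (0.78 to 1.02) in the PD1 Het section, so neither stood above the other spots beyond counting error. With spots of at least 1 UMI of the 5, macrophage markers were 1.23-fold higher (1.18 to 1.29) in the PD1 KO section and at 0.97-fold (0.90 to 1.05) in the PD1 Het section, and T cell markers were at 1.12-fold (0.78 to 1.58) and 1.19-fold (0.66 to 2.08). Checked against its label, the set shared spots in both sections with the list of other B cell genes as a sum, though not with each gene of it. Lambda transcripts shared spots with the set too, with at least 1 of the 5 genes in 65.5% (45.7 to 82.1) of 29 lambda spots in the PD1 KO section and 43.3% (25.5 to 62.6) of 30 in the PD1 Het section, against 30.3% and 24.7% of spots without lambda.

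Where the transcripts lay was described by the tissue genes of the same spots, since spot positions were not used here. Ranked into 5 equal bins of spots by the share of scar matrix genes, which ran from 0.402% to 2.24% of UMIs in the PD1 KO section and from 0.288% to 1.41% in the PD1 Het section, the 5 genes were nearly level. Low to high, the bins had 17.7, 17.5, 17.9, 18.4 and 20.2 CPM in the PD1 KO section and 23.5, 21.3, 28.7, 24.8 and 25.4 CPM in the PD1 Het section, with overlapping intervals. The top 20% of spots over the others was at 1.13-fold (0.87 to 1.45) and 1.03-fold (0.76 to 1.38). In the same comparison 22.3% of all genes in the PD1 KO section and 27.5% in the PD1 Het section were at least 1.5-fold higher, so the scar matrix ranking did separate tissue. Ranked by red blood cell genes the bins had 16.3, 18.4, 15.5, 17.3 and 23.2 CPM in the PD1 KO section and 25.2, 20.5, 22.9, 30.9 and 23.6 CPM in the PD1 Het section.

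**Figure D4:**
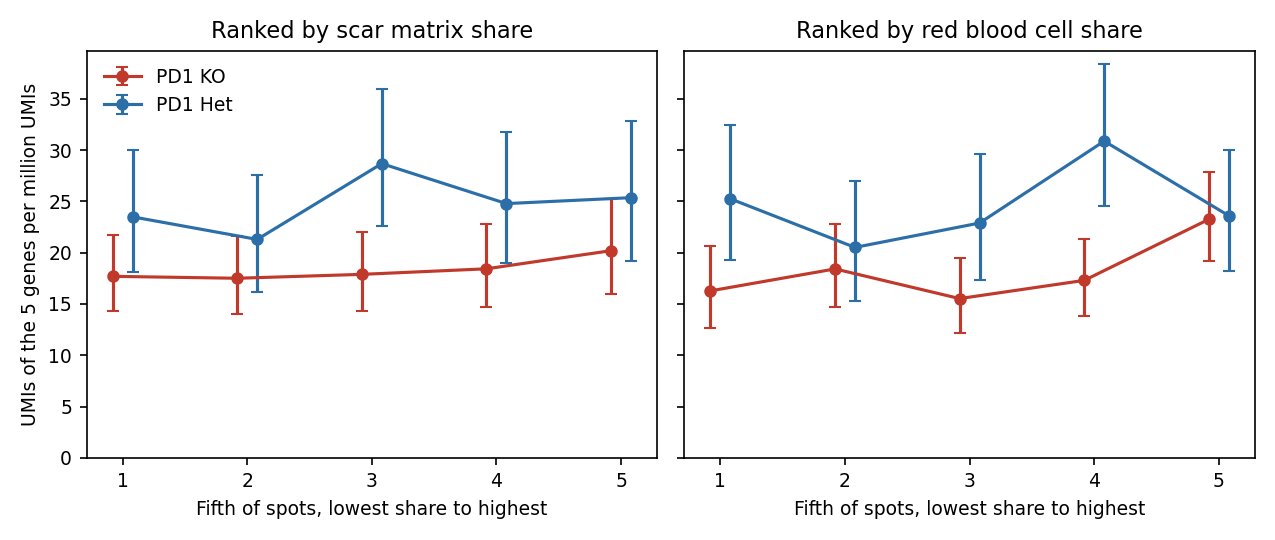
Summed level of the 5 genes in CPM (y axis) in 5 equal bins of the spots of a section (x axis), ranked by the share of scar matrix genes (left panel) and of red blood cell genes (right panel), for the PD1 KO and PD1 Het sections. Bars are 95% exact Poisson intervals; by scar matrix the PD1 KO section runs between 17.5 and 20.2 CPM and the PD1 Het section between 21.3 and 28.7 CPM.

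The plot of these bins shows the PD1 KO section below the PD1 Het section in each of them, with intervals that overlap in most. Of 12 tissue lists, the summed level was higher in the top 20% of spots beyond counting error for 4 in the PD1 KO section. These were lymphatic vessel markers at 1.42-fold (1.13 to 1.78), macrophage markers at 1.40-fold (1.11 to 1.77), red blood cell genes at 1.38-fold (lower bound above 1, upper bound 1.71) and epicardial markers at 1.28-fold (1.01 to 1.61). In the PD1 Het section the same lists gave 0.99-fold (0.74 to 1.31), 1.23-fold (0.92 to 1.62), 0.95-fold (0.71 to 1.24) and 1.07-fold (0.80 to 1.42). There T cell markers gave 1.32-fold (1.01 to 1.71) and smooth muscle markers 0.66-fold (0.47 to 0.92), compared with 1.04-fold (0.82 to 1.31) and 0.90-fold (0.69 to 1.16) in the PD1 KO section. By smooth muscle markers 5.43% of all genes in the PD1 KO section and 6.16% in the PD1 Het section were at least 1.5-fold lower. In the top 10% of spots, 3 of these 6 values no longer lay beyond counting error: red blood cell genes at 1.26-fold (0.94 to 1.68) and epicardial markers at 1.34-fold (0.97 to 1.81) in the PD1 KO section, and T cell markers at 1.01-fold (0.68 to 1.45) in the PD1 Het section. Epicardial markers in the PD1 Het section were at 1.45-fold (1.03 to 2.00) there. Without the spot richest in the 5, red blood cell genes in the PD1 KO section were at 1.25-fold (0.995 to 1.57) and T cell markers in the PD1 Het section at 1.18-fold (0.90 to 1.55). With 24 intervals at 95% and no adjustment, and with the differences between sections not tested, no list is singled out.

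By gene, 9 of 120 intervals lay beyond 1, 6 above and 3 below, and none of the 9 did so in both sections. For macrophage markers they were Ighm in the PD1 KO section, at 1.57-fold (1.14 to 2.13), and Igkc in the PD1 Het section, at 1.87-fold (1.08 to 3.11). The other genes in the PD1 KO section were at 1.59-fold for Cd79b, 1.46-fold for Cd79a, 1.35-fold for Ms4a1 and 0.77-fold for Igkc, and in the PD1 Het section Ighm was at 1.18-fold. Over all genes, 17.6% in the PD1 KO section and 17.3% in the PD1 Het section were at least 1.5-fold higher by this list.

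Cd79a had intervals above 1 for 3 lists. By lymphatic markers 17 of its 35 PD1 KO UMIs lay in the top 20% of spots, 4.04-fold (1.96 to 8.32) over the other spots, against 4 of 18 in the PD1 Het section, at 1.13-fold. By endocardial markers the PD1 KO section gave 0.59-fold (0.15 to 1.66) and the PD1 Het section 5.62-fold (2.00 to 16.4), with 10 of its 18 UMIs. By red blood cell genes Cd79a was at 2.48-fold (1.16 to 5.11) in the PD1 KO section, where Ighm was at 1.41-fold (1.04 to 1.90). The shares of all genes at least 1.5-fold higher were 6.26% in the PD1 KO section and 6.1% in the PD1 Het section by lymphatic markers, 11.1% and 13.6% by endocardial markers, and 2.79% and 5.22% by red blood cell genes. The lymphatic list is led by Prox1, a lymphatic transcription factor gene that heart muscle also expresses, with 1208 of 1839 UMIs in the PD1 KO section and 374 of 918 in the PD1 Het section.

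The 3 intervals below 1 were all in the PD1 Het section. Ighm was at 0.53-fold (0.29 to 0.91) by ventricular cardiomyocyte markers and 0.53-fold (0.29 to 0.89) by smooth muscle markers, and Cd79b was at 0.35-fold (0.09 to 0.94) by scar matrix genes. By cardiomyocyte markers 9.39% of all genes in the PD1 KO section and 9.9% in the PD1 Het section were at least 1.5-fold lower, and by scar matrix genes 5.43% and 4.09%. For the 5 together, cardiomyocyte markers gave 0.84-fold (0.64 to 1.08) in the PD1 KO section and 0.82-fold (0.59 to 1.12) in the PD1 Het section, which is within counting error. The plot by tissue list shows the summed values around 1.

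**Figure D5:**
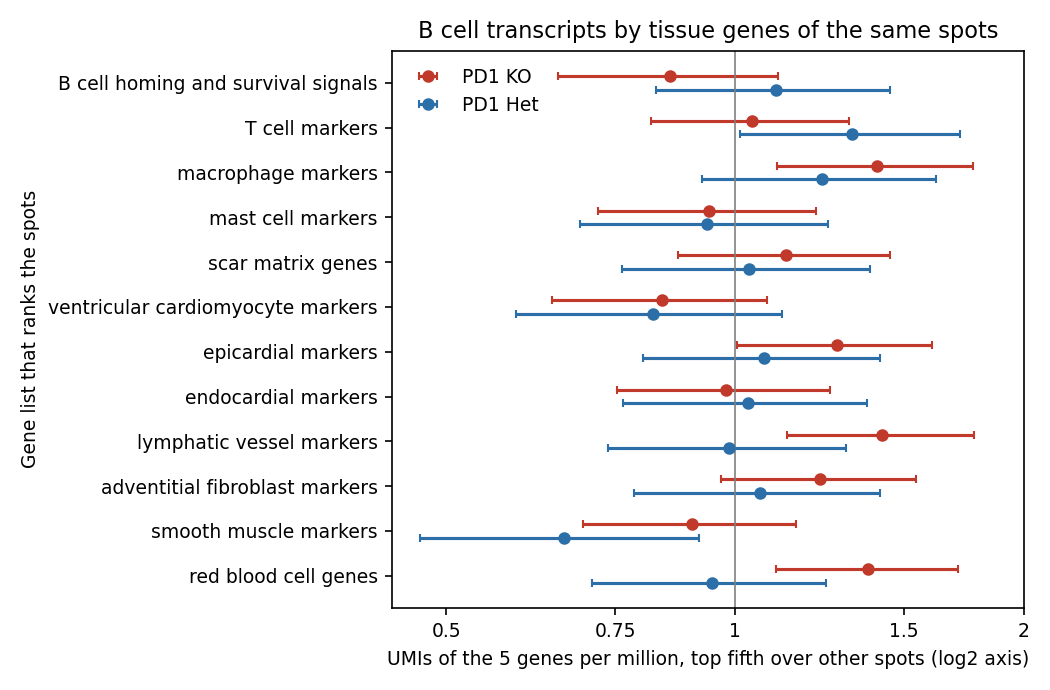
Summed CPM of the 5 genes in the top 20% of spots over the other spots (x axis, log2 scale), for spots ranked by each of 12 gene lists (y axis), in the PD1 KO and PD1 Het sections. Bars are 95% exact conditional intervals that cover counting error only; values run between 0.84 and 1.42 in the PD1 KO section and between 0.66 and 1.32 in the PD1 Het section.

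The genes whose spots were most like those of the set were sought among 11393 genes with at least 30 UMIs in each section, by the smaller of the section folds between spots with at least 2 UMIs of the 5 and the other spots. Only 4 genes (0.0351%) were at least 2-fold higher in both. Cd37, a tetraspanin of B cells and other leukocytes, came first at 2.54-fold in the PD1 KO section (1.36 to 4.52) and 3.64-fold in the PD1 Het section (1.32 to 8.71). It was followed by Cd52, a lymphocyte surface glycoprotein gene, at 2.17-fold (1.63 to 2.86) and 2.77-fold (1.66 to 4.44), and by Cd74, the invariant chain of MHC class II, at 2.15-fold (1.83 to 2.52) and 3.06-fold (2.11 to 4.35). Zranb3 was at 2.16-fold (1.25 to 3.57) and 2.01-fold (0.611 to 5.22), and the second interval includes 1.

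Next came Gm6277, H2-Aa, Ly6h and B4galnt1. The MHC class II gene H2-Aa was at 1.89-fold (1.43 to 2.47) and 3.06-fold (1.48 to 5.83). Cd37 had 16 of its 69 PD1 KO UMIs and 7 of its 31 PD1 Het UMIs in these spots, and Cd74 195 of 959 and 40 of 203. When spots with at least 1 UMI of the 5 were used, 0.0176% of genes were at least 2-fold higher in both sections, and Cd37 was again first, while Zranb3 and Gm6277 were at ranks 501 and 310. The likeness is over spots of 2 libraries, which share depth and tissue makeup, and carries no test.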

How the data were processed

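The authors deposited, for either section, unnormalized UMI counts of every gene in every spot. File headers name Space Ranger 1.1.0 as the counting software, and mm10 and GRCm38 are the builds in the submitters' processing notes. For the aligner settings, the annotation release and the choice of spots, the answer is not given in the sources used here. Spots were kept from 500 UMIs up, 851 of 859 in the PD1 KO section and 811 of 812 in the PD1 Het section, and the spots left out held 0 UMIs of the 5 genes. Counts were summed per section, scaled to CPM, and compared as PD1 KO over PD1 Het, also relative to the median gene (11455 genes with at least 100 UMIs). Gene positions came from the GENCODE annotation of GRCm38, and the promoter from RefSeq. In UMIs of 1 section, 3 counts are 0.128 CPM (PD1 KO) or 0.234 CPM (PD1 Het), the limit that a count of 0 allows. Intervals are exact Poisson, Clopper-Pearson or conditional binomial at 95%; intervals of a difference of shares were joined from the Clopper-Pearson bounds. Thinning was 1 random draw of 10000 UMIs per spot, the largest of 4 depths to keep 90% or more of both sections' spots. Genes named were the 5, genes of 20 lists with at least 10 UMIs, and the 8 most alike; others are named with their counts, and 1 gene of these lists is not reported here by name. The members and lists were chosen with earlier results of these data known. Scripts were tested on simulated data. Python 3.11.15, numpy 2.4.6, scipy 1.17.1, pandas 2.3.3, matplotlib 3.10.9, R 4.3.3 and edgeR 4.0.16 (TMM factors only) were used. Alternatives were other scalings, spot filters, thinning depths, spot fractions and gene floors.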

Additional observations from a re-analysis of the deposited data

Results flagged for a closer look

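In spots with at least 2 UMIs of the 5 genes, mast cell markers were 3.34-fold higher (2.88 to 3.87) than in other spots of the PD1 KO section and 0.292-fold (0.16 to 0.49) in the PD1 Het section. They are set apart because the sections went opposite ways, and the difference between them was not tested. A single PD1 KO spot with 173 mast cell UMIs and 2 UMIs of the 5 carried the PD1 KO value, which was 1.11-fold (0.874 to 1.39) without it, against 0.342-fold (0.19 to 0.569) in the PD1 Het section without its own richest spot. Red blood cell genes went opposite ways too, at 0.960-fold (0.95 to 0.97) in the PD1 KO section and 1.37-fold (1.34 to 1.39) in the PD1 Het section, and this difference was not tested either. Without the spot richest in red blood cell UMIs of each section they were 0.996-fold (0.981 to 1.01) and 1.45-fold. Leaving out these spots was chosen after seeing the data.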

How the results depend on the processing

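The summed ratio of the 5 genes lay below 0 under each of 10 alternatives of scaling and spots, between -0.77 and -0.44 on the log2 scale against -0.77 as reported, and moved outside its counting interval only in CPM on all UMIs (-0.44). By gene the range was -1.27 to -0.93 for Igkc, -0.52 to -0.19 for Ighm, -1.66 to -1.32 for Ms4a1 and -0.88 to -0.52 for Cd79b, while Cd79a ran from -0.26 to 0.08 and so changed sign. The share of spots with any of the 5 depended on the thinning depth: 3.65% in the PD1 KO section and 3.85% in the PD1 Het section at 2000 UMIs, 7.55% and 10.1% at 5000, and 31.5% and 25.4% without thinning. With mitochondrial UMIs left out before thinning it was 17.3% and 22.8%, a difference of -5.48 points whose interval (-9.83 to -1.20) lies below 0, and the PD1 Het section then kept 602 spots. The difference of PD1 KO minus PD1 Het turned from -3.61 points to 6.09 without thinning, where the PD1 KO section is the deeper one. This was not so for every gene. Without thinning, Igkc was in 6.93% of PD1 KO spots and 8.14% of PD1 Het spots, and Ms4a1 in 1.65% and 2.10%. The share with at least 2 of the genes was 6.82% and 5.80% without thinning. The scar matrix value in the PD1 Het section was -0.44 on the log2 scale for the top 10% of spots, against 0.05 for the top 20%, and the cause was not tested. T cell markers in the PD1 Het section gave 0.01 for the top 10% and 0.24 without the spot richest in the 5, against 0.41. Genes at least 2-fold higher in both sections numbered 2 when spots with at least 1 UMI were used, against 4. With a floor of 30 UMIs, 1 other B cell gene was higher and 0 were lower, against 3 and 3, as fewer genes were counted. No paired analysis was possible because each group has 1 section. Depth limits the lower genes most: Ms4a1 and Cd79a rest on 14 to 35 UMIs a section, and no value here carries the spread between animals.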
